A study of Rattus norvegicus with 4 samples.

Results

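Cytosolic ribosomal proteins are the protein parts of the ribosome that translates nuclear mRNA, and their genes were followed here across normal, regenerated and overloaded soleus of male rats. The soleus, in the calf, is made mostly of slow fibres and bears posture. Members were chosen by symbol, namely Rpl or Rps followed by a number, together with Rplp0, Rplp1, Rplp2 and Rpsa. Kinases of the Rps6k type and pseudogene names were left out. The symbol rule uses no measured value, but the family was picked with earlier results of these data known. Of 84 such genes with a probe, 81 were well above background on all 4 arrays, out of 14417 genes and transcripts that met the same condition.

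RNA was measured on 4 one-colour Agilent arrays, with RNA of 6 muscles mixed for each array, so every group had n = 1 and no difference has a replicate check. Normal muscle came from rats aged 16 weeks. Regenerated muscle came from rats of 16 weeks and was taken 8 weeks after an injection that the labels call CTX and do not expand. Overloaded muscle, labelled as hypertrophied, came from rats of 18 weeks, and regenerated overloaded muscle, also from rats of 18 weeks, had been both regenerated and loaded. How the load was raised, how long it lasted, the strain, and whether groups share rats are not given in the labels. The sample titles end in L for both regenerated groups and in R for both others, letters that the labels do not explain, so regeneration and that letter cannot be told apart. Overload, age and the row on the slide cannot be told apart either, because both overloaded groups were 18 weeks old and lay in slide row 2, and both other groups were 16 weeks old and lay in row 1.

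The ribosome has a small subunit, which reads the mRNA, and a large subunit, which joins amino acids and carries a flexible stalk that recruits translation factors. Its protein genes are known to be expressed in near-equal proportion, and many of their mRNAs start with a run of pyrimidines through which growth signals control translation. A few of the proteins have paralogs with a restricted tissue pattern. The best known in muscle is Rpl3l, a relative of Rpl3 found mainly in skeletal muscle and heart, where it can take the place of Rpl3 in the ribosome.

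Between 60.4% and 70.6% of the probe spots on an array were well above background, with the lowest share on the normal array. Levels are log2 of the processed signal minus log2 of the array's 75th percentile, and differences are between such levels. Errors are technical standard errors, computed from spots that carry the same probe within an array, and leave out the spread between muscles. The defining fibre markers were bright on all 4 arrays. The log2 difference from normal muscle to regenerated, and from normal to overloaded, was -0.15 and -0.26 for Myh7 (slow myosin), -0.19 and -0.25 for Tnni1 (slow troponin I), and -0.34 and -0.44 for Ckm (muscle creatine kinase); cyclic loess turned the signs of Myh7 and Tnni1 to 0.13 and 0.13, and to 0.086 and 0.13. In pooled bulk muscle, fewer cells of a type and less RNA per cell cannot be told apart.

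The family moved almost as a block, within a narrow band in each comparison, and Rpl3 and Rpl3l stood at its opposite ends. In regenerated minus normal muscle the member median was -0.15 (all genes -0.12), and it turned to 0.051 with quantile normalization and to 0.088 with cyclic loess. In overloaded minus normal muscle it was -0.22 (all genes -0.13), and it turned to 0.053 and 0.10 under those same scalings. In regenerated overloaded minus regenerated muscle it was 0.019 (all genes -0.022), and it lay between 0.0066 and 0.12 over all settings. Between both overloaded groups, regenerated minus not, it was 0.089 (all genes -0.010), between 0.071 and 0.11 over all settings. The last was the difference whose size depended least on the scaling. The shift of the whole family against normal muscle therefore has no settled direction in these data, and single members are given below also relative to the member median.

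Without Rpl3 and Rpl3l, the spread of the members was close to the technical error in both comparisons of regenerated with other muscle. It was wider than that error in both overload comparisons. Of the 81 members, 74 lay within 0.1 of the member median in regenerated minus normal muscle, 63 in overloaded minus normal, 68 in regenerated overloaded minus regenerated and 76 in regenerated overloaded minus overloaded. Without Rpl3 and Rpl3l, the extremes of these same data, the SD over members was 0.052, 0.085, 0.072 and 0.047 in the same order. Over all 81 members it was 0.081, 0.13, 0.095 and 0.055. The median technical standard error of a member's difference was 0.053, 0.053, 0.052 and 0.051. With both genes included, the SD was thus wider than that error in regenerated minus normal muscle too. Over all 14417 genes, many of them dimmer and noisier, the SD was 0.35, 0.40, 0.30 and 0.23.

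A gene was counted as higher or lower where the arrays differed 1.3-fold or more. In regenerated minus normal muscle, 1 member was higher (Rpl3) and 0 were lower, beside 10.1% of all genes higher and 8.43% lower. In overloaded minus normal muscle, 1 was higher (Rpl3) and 2 were lower (Rpl3l and Rpsa), beside 12.2% and 14.4%. In regenerated overloaded minus regenerated muscle, 1 was higher (Rpl3) and 0 were lower, beside 7.37% and 6.49%. Between regenerated overloaded and overloaded muscle, 0 members passed the limit in either direction, beside 4.24% and 3.65%. Overload differences were also subtracted from each other, the one in normal muscle from the one in regenerated muscle, which is called the difference of differences; 0 members passed, beside 6.03% higher and 7.77% lower. At 1.5-fold and at 2-fold no member passed in any of these with the 75th-percentile scaling. Rpl3 passed 1.5-fold in overloaded minus normal muscle with normexp (0.67), quantile normalization (0.85), cyclic loess (0.85) and the authors' scaling (0.76), and in regenerated minus normal muscle with quantile normalization (0.59) and cyclic loess (0.60). The background at 1.5-fold was 5.08% higher and 2.21% lower in regenerated minus normal muscle, and 7.19% and 3.35% in overloaded minus normal. At the same limit it was 3.05% and 1.62% in regenerated overloaded minus regenerated muscle, 1.43% and 1.01% in regenerated overloaded minus overloaded, and 1.77% and 2.75% in the difference of differences. At 2-fold the shares higher and lower were 0.957% and 0.381%, 1.98% and 0.534%, 0.798% and 0.229%, 0.347% and 0.160%, and 0.395% and 0.354% in the same order.

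**Figure D1:**
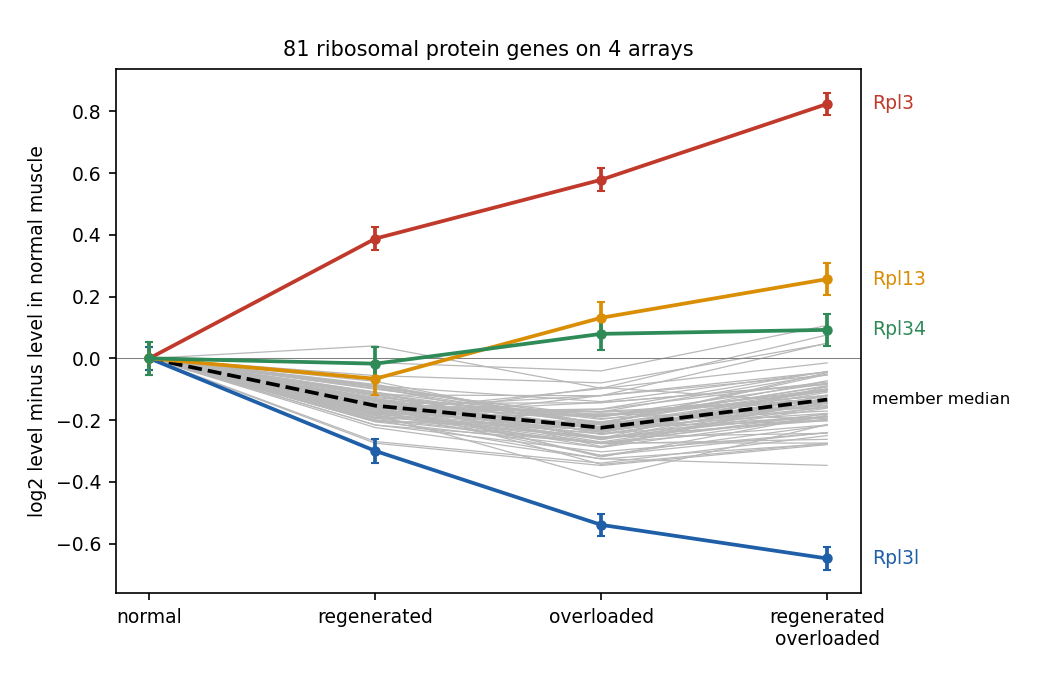
Log2 level of each of the 81 members minus its own level in normal muscle (vertical axis) on the 4 arrays (horizontal axis, 1 array per group; lines join arrays and show no time course). Grey lines are members, the dashed line their median, coloured lines named members with technical standard errors of the level; Rpl3 ends at 0.82 and Rpl3l at -0.65, on either side of the other 79.

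**Figure D2:**
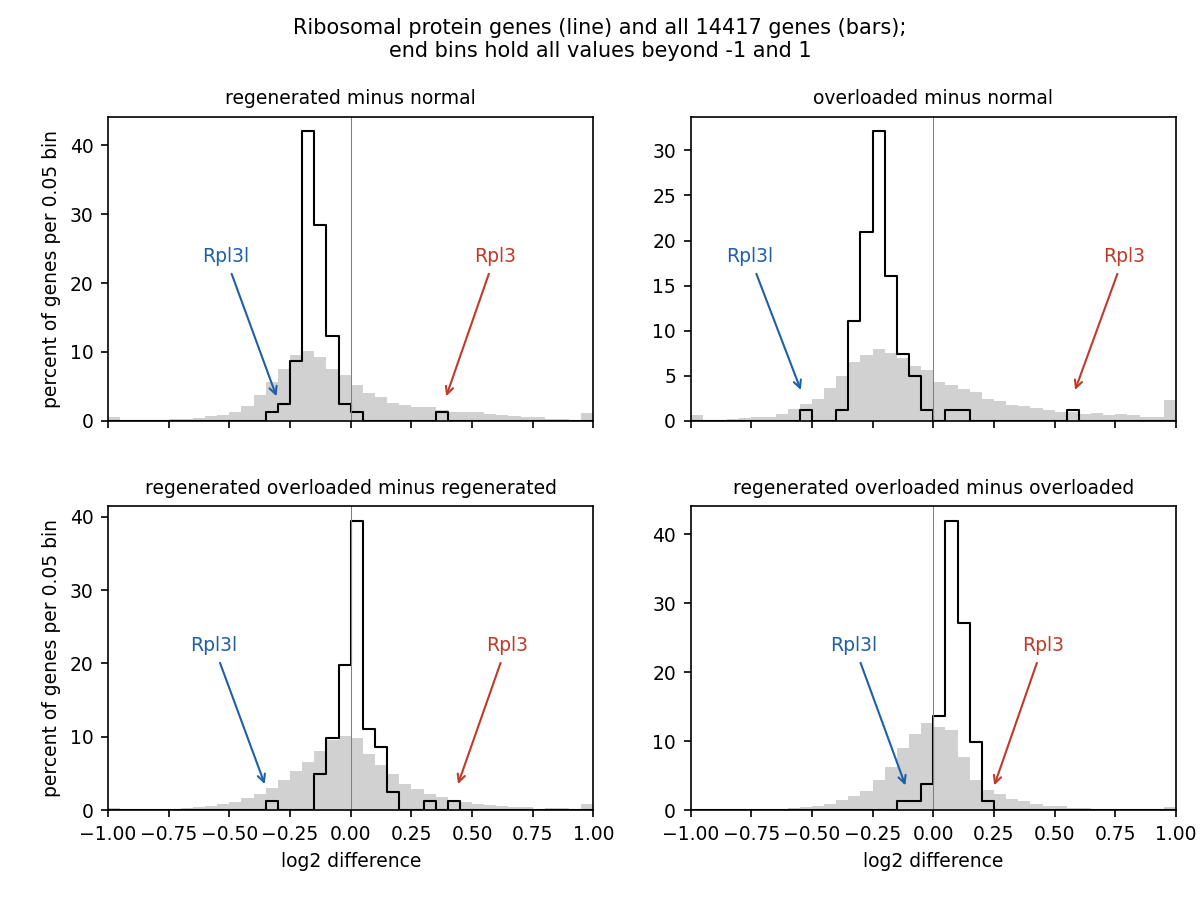
Share of genes in each bin of log2 difference (vertical axis, percent) against the log2 difference (horizontal axis) for the 4 comparisons. Grey bars are all 14417 genes, black lines the 81 members, and arrows mark Rpl3 and Rpl3l, the highest and the lowest member in every panel.

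Rpl3 is a large-subunit protein that reaches to the peptidyl transferase centre, where amino acids are joined. Its log2 level was 4.36 in normal, 4.75 in regenerated, 4.94 in overloaded and 5.18 in regenerated overloaded muscle. Before any scaling, its 2 spots read 13674 and 13543 intensity units in normal muscle, 19458 and 20560 in regenerated, 24984 and 25389 in overloaded, and 28657 and 28904 in regenerated overloaded muscle. The spots of one group never overlapped those of another.

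Rpl3 was 1.31-fold higher in regenerated than in normal muscle (log2 difference 0.39, technical SE 0.053) and 1.49-fold higher in overloaded than in normal muscle (0.58, technical SE 0.053). It was 1.35-fold higher in regenerated overloaded than in regenerated muscle (0.44, technical SE 0.052) and 1.19-fold higher than in overloaded muscle (0.25, technical SE 0.051). It was the highest of the 81 members in all 4 comparisons. Relative to the member median, its difference lay over all settings between 0.51 and 0.58 in regenerated minus normal muscle and between 0.74 and 0.86 in overloaded minus normal. In regenerated overloaded minus regenerated muscle it lay between 0.39 and 0.45, and in regenerated overloaded minus overloaded between 0.14 and 0.16.

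Rpl3l went the other way. Its log2 level was 5.20 in normal, 4.90 in regenerated, 4.66 in overloaded and 4.55 in regenerated overloaded muscle. Its 2 unscaled spots read 24568 and 24154 in normal muscle, 22426 and 22030 in regenerated, 21070 and 20482 in overloaded, and 18989 and 18154 in regenerated overloaded muscle. Again no group's spots overlapped those of another, though the smallest gap, between the overloaded and regenerated overloaded arrays, was 0.056 on the scaled log2 level.

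Rpl3l was 1.23-fold lower in regenerated than in normal muscle (log2 difference -0.30, technical SE 0.053), 1.45-fold lower in overloaded than in normal muscle (-0.54, technical SE 0.053), and 1.27-fold lower in regenerated overloaded than in regenerated muscle (-0.35, technical SE 0.052). Between regenerated overloaded and overloaded muscle its difference was -0.11 (technical SE 0.051). It was the lowest of the 81 members in all 4 comparisons. In regenerated minus normal muscle Rps25 and Rpl27 were close to it, both at -0.27 (technical SE 0.075). Relative to the member median, Rpl3l lay over all settings between -0.20 and -0.15 there and between -0.37 and -0.31 in overloaded minus normal muscle. In regenerated overloaded minus regenerated muscle it lay between -0.38 and -0.32, and in regenerated overloaded minus overloaded between -0.20 and -0.18. Not set against that median, the difference of Rpl3l kept its sign under every setting. It lay between -0.30 and -0.091 in regenerated minus normal and between -0.55 and -0.27 in overloaded minus normal muscle. Of the 4 differences, that of overloaded minus normal muscle passed 1.3-fold, and it was -0.30 with quantile normalization, -0.27 with cyclic loess and -0.36 with the authors' scaling, short of that limit.

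The change of Rpl3 against Rpl3l does not depend on how an array is scaled by a constant. It was 1.61-fold toward Rpl3 from normal to regenerated muscle (log2 0.69, technical SE 0.075) and 2.17-fold from normal to overloaded muscle (1.12, technical SE 0.075). From regenerated to regenerated overloaded muscle it was 1.72-fold (0.78, technical SE 0.073), and from overloaded to regenerated overloaded 1.28-fold (0.35, technical SE 0.073). Over all settings these log2 changes lay between 0.69 and 0.74, 1.12 and 1.19, 0.74 and 0.78, and 0.32 and 0.35. From normal to regenerated overloaded muscle the ratio changed 2.77-fold (log2 1.47, technical SE 0.074), with Rpl3 1.77-fold higher and Rpl3l 1.57-fold lower. With overload the ratio shifted less in regenerated than in normal muscle, by -0.33 on the log2 scale (technical SE 0.10; between -0.42 and -0.33 over all settings), a difference with no replicate check. Each of both genes was read from 1 probe.

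**Figure D3:**
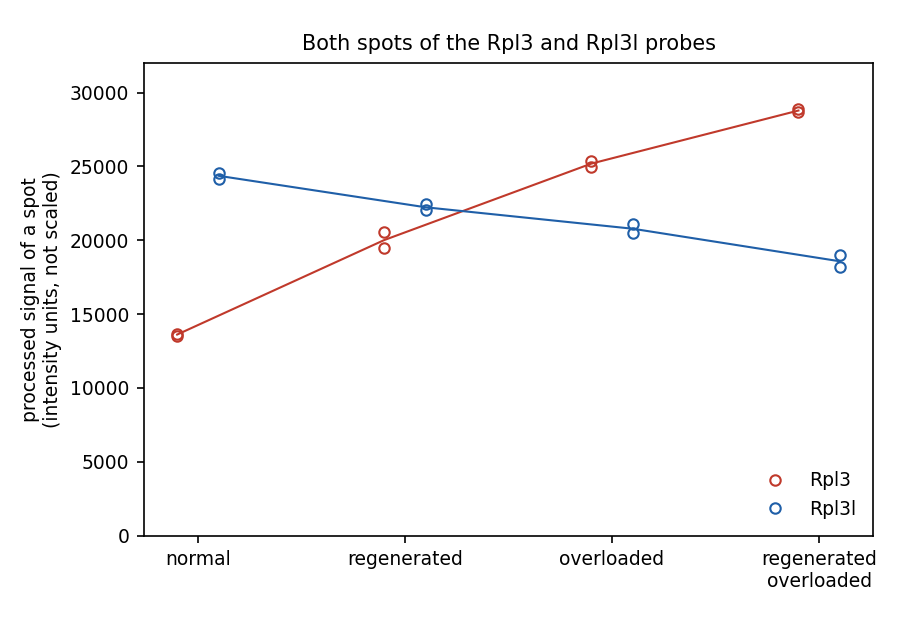
Processed signal of the 2 spots of the Rpl3 probe and of the Rpl3l probe (vertical axis, intensity units, unscaled) on the 4 arrays (horizontal axis); circles are spots and lines join spot means. Rpl3 reads upward and Rpl3l downward from normal to regenerated overloaded muscle; the levels of the 2 probes cannot be set against each other, so the crossing has no meaning.

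With the 75th-percentile scaling, the sums of the fibroblast, macrophage and lymphocyte markers lay in the same order of groups as Rpl3. That of the fibre markers lay in the same order as Rpl3l. The sums are given for this scaling only, and cyclic loess turned the signs of Myh7 and Tnni1 against normal muscle. The summed signal of 7 fibroblast and matrix markers (of 8; Thy1 was not above background on every array) was 103, 204, 266 and 355 in units of the 75th percentile in normal, regenerated, overloaded and regenerated overloaded muscle. That of 8 macrophage markers was 47.4, 73.4, 81.2 and 88.8. The sum of 12 soleus fibre markers was 3331, 2743, 2667 and 2508, with list medians of -0.25, -0.31, -0.17 and -0.11 on the log2 scale in the 4 comparisons. In the same units and order, the 2 detected blood markers (of 4) summed to 82.4, 75.04, 85.4 and 90.2, and the 3 endothelial markers (of 4) to 9.80, 9.98, 10.5 and 10.4. The 2 detected lymphocyte markers (of 6) summed to 0.470, 0.679, 0.722 and 0.767. The 3 detected markers of dividing cells (of 6) summed to 0.573, 0.632, 1.45 and 1.33. The part of these cells in the Rpl3 and Rpl3l result was not tested.

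The promoters of both genes are shown because Rpl3 was the highest and Rpl3l the lowest member in each of the 4 comparisons. They are from RefSeq, build GRCr8, and cover the 180 bases before the annotated start, 5′ to 3′ on the gene's strand. Capitals mark the E-box CANNTG, the short motif bound by MyoD and other helix-loop-helix factors, which reads alike on both strands. Rpl3l lies on the plus strand at chr10:14258266-14258445 and Rpl3 on the minus strand at chr7:113507991-113508170.
Rpl3l: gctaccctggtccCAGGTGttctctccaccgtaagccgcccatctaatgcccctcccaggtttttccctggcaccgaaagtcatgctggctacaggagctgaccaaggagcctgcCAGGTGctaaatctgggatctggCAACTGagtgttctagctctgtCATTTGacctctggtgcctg
Rpl3: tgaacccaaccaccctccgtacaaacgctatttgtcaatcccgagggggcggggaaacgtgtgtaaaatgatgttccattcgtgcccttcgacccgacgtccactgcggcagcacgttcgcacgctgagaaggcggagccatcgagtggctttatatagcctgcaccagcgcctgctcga
The Rpl3l stretch holds 4 E-boxes and the Rpl3 stretch 0. In the full table window, 300 bases from 250 before to 50 after the start, Rpl3l was the only member of 65 with a promoter in the table to hold 4 or more, against 5.79% of all 33469 promoters. The limit of 4 equals the count of Rpl3l itself, and Rpl34, Rplp2, Rps27l, Rps3 and Rps4y2 held 3. At least 1 E-box stood in 35 of the 65 (53.8%) and in 72.1% of all promoters. A match of letters is not a binding site.

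The pyrimidine run at the start was the feature most members shared. A run of 8 or more C or T on the gene's strand, touching the 20 bases on either side of the annotated start, was found in 51 of 65 members (78.5%) and in 21.0% of all promoters. Examples of 30 bases across the start are shown, with the run in capitals, for members that lay inside the band (Rplp1) and outside it. They lie at chr8:71290858-71290887 (minus strand, Rplp1), chr19:68062499-68062528 (plus strand, Rpl13), chr2:221962279-221962308 (minus strand, Rpl34), chr10:14258436-14258465 (plus strand, Rpl3l) and chr7:113507976-113508005 (minus strand, Rpl3).
Rplp1: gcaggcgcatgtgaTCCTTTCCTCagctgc
Rpl13: ctttgcggtgcccgaTCCTTTCCgctcggc
Rpl34: aactcgcccgCCCCTTCCTTTTCCTCTTCC
Rpl3l: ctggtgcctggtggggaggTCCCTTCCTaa
Rpl3: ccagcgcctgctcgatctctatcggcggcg
The annotated starts may be off by some bases, so that the absence of a run from the Rpl3 window says only that these letters are not there. Members with the run had a median of -0.21 in overloaded minus normal muscle (n = 51) and members without it -0.22 (n = 14). In regenerated minus normal muscle both medians were -0.15, and in regenerated overloaded minus overloaded muscle they were 0.097 and 0.082. Members with and without the run thus had nearly the same medians.

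Overload of normal and of regenerated muscle can be compared without a shared array, since the first uses the normal and overloaded arrays and the second the other pair. The order of members was similar in both. Over the 79 members without Rpl3 and Rpl3l, Pearson's r between the overload differences was 0.75 and Spearman's rho 0.70 (0.84 and 0.72 with all 81). The points share probes, spot position and slide row, so these values describe the 4 arrays only. For regeneration, in muscle without and with overload, r was 0.36 and rho 0.39 over the 79 members (0.52 and 0.43 with all 81).

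The family median differed between both overload comparisons. It was -0.22 in normal and 0.019 in regenerated muscle, the latter below the median technical standard error of a member's difference (0.052). In the first, 78 of 81 members lay below 0 (34.5% of all genes lay above 0). In the second, 52 lay above 0 (45.6% of all genes). The difference of differences had a median of 0.24, with 80 of 81 members above 0, beside a median of 0.087 over all genes and 63.8% above 0. Rpl3, at -0.14, was the exception. Relative to all genes the median was 0.16, but it was -0.011 with quantile normalization and -0.020 with cyclic loess, so its direction against other genes hangs on the scaling. In regenerated minus normal muscle 2 of 81 members lay above 0 (32.8% of all genes), and in regenerated overloaded minus overloaded muscle 76 did (47.6%).

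**Figure D4:**
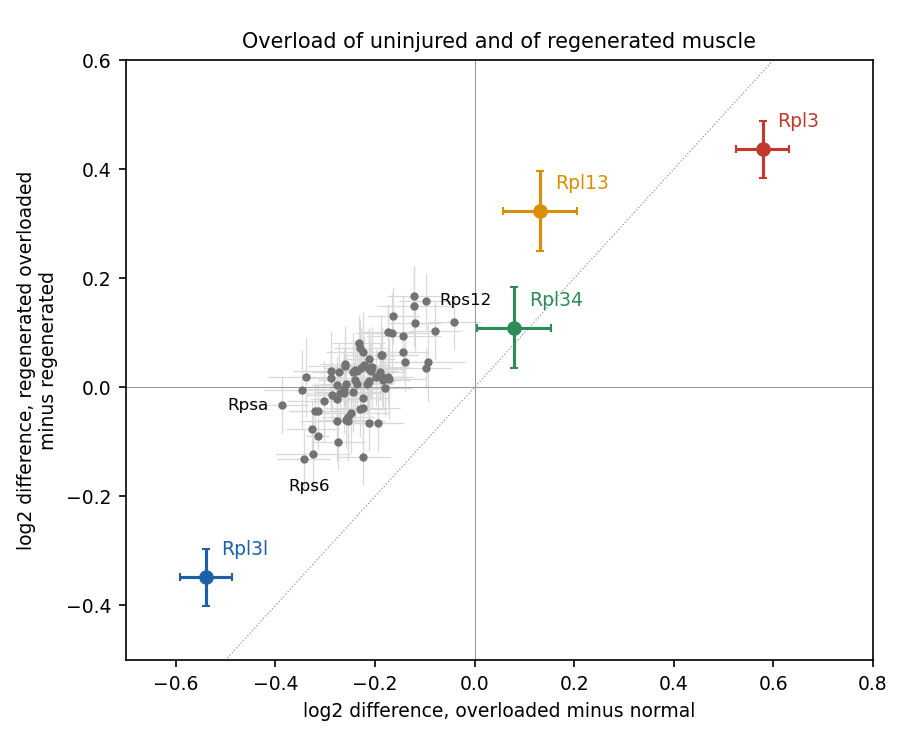
Log2 difference with overload in regenerated muscle (vertical axis) against that in normal muscle (horizontal axis), 1 point per member with technical standard errors; the dotted line marks equal differences. Most members form a cloud above the dotted line, with Rpl3 (0.58 and 0.44), Rpl13 (0.13 and 0.32) and Rpl3l (-0.54 and -0.35) apart from it.

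In both overload comparisons the second highest member after Rpl3 was Rpl13, a large-subunit protein. Its level was 6.34 in normal, 6.28 in regenerated, 6.47 in overloaded and 6.60 in regenerated overloaded muscle, highest in both overloaded groups. Its difference was 0.32 in regenerated overloaded minus regenerated muscle (technical SE 0.073) and 0.13 in overloaded minus normal (technical SE 0.075). Relative to the member median these were 0.27 to 0.31 and 0.31 to 0.36 over the settings. It passed 1.3-fold in overloaded minus normal muscle with quantile normalization (0.41) and cyclic loess (0.46), and in regenerated overloaded minus regenerated muscle with cyclic loess (0.42). Rpl13 was read from 1 spot per array.

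Rpl34, also of the large subunit, had levels of 6.88, 6.87, 6.96 and 6.98 in normal, regenerated, overloaded and regenerated overloaded muscle, from 1 spot per array. Its difference in overloaded minus normal muscle was 0.29 to 0.32 above the member median over the settings, and with cyclic loess it passed 1.3-fold there (0.42). Rps12, a small-subunit protein, had levels of 7.51, 7.49, 7.47 and 7.61. Its difference in overloaded minus normal muscle was -0.041, which was 0.18 above the member median. Rpl27a, with differences of -0.056 and -0.080 against normal muscle, was the fifth highest in both of these comparisons. Rpl15, a large-subunit protein with a dim probe, was read from 10 spots and differed by 0.040 (technical SE 0.046) in regenerated minus normal muscle, second to Rpl3.

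On the low side, Rpsa, which is both a small-subunit protein and known as a laminin receptor, had levels of 5.78, 5.60, 5.39 and 5.57. It was lowest in overloaded muscle, 1.31-fold below normal (log2 difference -0.39, technical SE 0.053), and 0.17 higher in regenerated overloaded than in overloaded muscle. Its overloaded minus normal difference lay between -0.39 and -0.091 over the settings, and between -0.20 and -0.16 relative to the member median. Rps6, the small-subunit protein phosphorylated by S6 kinases during growth, had levels of 6.32, 6.17, 5.97 and 6.04. Its differences of -0.34 in overloaded minus normal and -0.13 in regenerated overloaded minus regenerated muscle were among the 5 lowest in each. Rps25, needed by some viral and cellular internal ribosome entry sites, differed by -0.27 in regenerated and -0.35 in overloaded minus normal muscle, and Rpl27 by -0.27 and -0.34. Both were read from 1 spot. Rpl7a was among the 5 lowest in regenerated minus normal (-0.22), regenerated overloaded minus regenerated (-0.12) and regenerated overloaded minus overloaded muscle (-0.021).

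The medians of both subunits were close. The 30 small-subunit members had medians of -0.16, -0.24, 0.023 and 0.10 in regenerated minus normal, overloaded minus normal, regenerated overloaded minus regenerated and regenerated overloaded minus overloaded muscle. The 41 large-subunit members had -0.15, -0.22, 0.019 and 0.089. Of the stalk, Rplp0, the base that anchors the stalk, differed by -0.094, -0.19, -0.065 and 0.036. Rplp1 differed by -0.21, -0.29, 0.016 and 0.099, and Rplp2 by -0.19, -0.18, -0.0014 and -0.016. Rplp1 and Rplp2 form the dimers of the stalk. No stalk member passed 1.3-fold, and with cyclic loess the differences of all 3 from normal muscle turned above 0, as the family median did.

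Apart from Rpsa, the members picked by name for a known role, use or disease link passed 1.3-fold in none of the 4 comparisons. The negative signs against normal muscle given here turned with cyclic loess, except that of Rack1. Rpl5 and Rpl11, which bind the p53 regulator Mdm2 with 5S rRNA, differed by -0.21 and -0.12 in overloaded minus normal muscle. Between regenerated overloaded and overloaded muscle they differed by 0.12 and 0.076. Rps3, which also takes part in DNA repair, differed by -0.29 and 0.16 in these comparisons, and Rps19, mutated in Diamond-Blackfan anaemia, by -0.29 and 0.16. Rpl13a, a common reference gene for normalization, differed by -0.098, -0.21, 0.051 and 0.17 in the 4 comparisons. Rps27a, made as a fusion with ubiquitin, differed by -0.15, -0.26, -0.0028 and 0.11. Of ribosomal proteins whose symbols do not follow the family pattern, Fau, a fusion of Rps30 with a ubiquitin-like protein, differed by -0.15, -0.15, 0.069 and 0.070, and Rack1, a scaffold on the small subunit, by -0.22, -0.27, 0.027 and 0.085.

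Read from the brightest probes, the 4 other paralog pairs with both genes detected stayed closer together than Rpl3 and Rpl3l in each of the 4 comparisons. Rpl22 and Rpl22l1 differed from each other by 0.00096 in regenerated and -0.11 in overloaded minus normal muscle (technical SE 0.092 and 0.091). Rps27 and Rps27l differed by -0.053 and -0.10, and Rpl36a and Rpl36al1 by 0.089 and -0.048. Rps4x and its relative Rps4y2 differed by -0.00093 and -0.14, the widest gap of the 4 pairs. The 2 probes of Rps4y2 disagreed: in overloaded minus normal muscle the brighter read -0.17 and the other 0.38. In regenerated overloaded minus overloaded muscle they read 0.038 and -0.30, beside 0.075 for Rps4x. With the dimmer probe that pair lay wider apart there than Rpl3 and Rpl3l (0.35). Among the 48 members with more than 1 probe, the probes' differences lay within 0.2 of each other in 47, 47, 48 and 47 in the 4 comparisons, and Rps4y2 had the widest range in each.

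Of the 84 genes, Rpl27l2 and Rps12l4 were not well above background on any array, and Rpl39l1 was above it on 3 arrays, all but normal. Rpl39l1 had 1 spot and log2 levels of -6.75, -4.47, -5.28 and -5.19, which makes it at least 1.04-fold higher in regenerated muscle against the lowest probe level above background on the normal array. Rpl26, Rpl37 and Rps9 are standard subunit genes without a matched probe here. Ribosomal protein genes have many processed pseudogenes, so that a probe may also read near-identical copies. The RefSeq gene table holds 908 entries named as pseudogenes of ribosomal proteins, of whatever kind.

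The lists that follow cover other genes of the translation machinery. The SD over 67 mitochondrial ribosomal proteins was 0.095, 0.13, 0.13 and 0.077 in the 4 comparisons. Over all 81 cytosolic members it was 0.081, 0.13, 0.095 and 0.055. Without Rpl3 and Rpl3l, the highest and lowest in these same data, it was 0.052, 0.085, 0.072 and 0.047 over the other 79. The mitochondrial list was not trimmed in this way. Of these 67, which serve the translation of mRNAs made inside mitochondria, 0 were higher and 11 lower in regenerated minus normal muscle, and 0 were higher and 28 lower in overloaded minus normal. These are 16.4% and 41.8% lower, beside 8.43% and 14.4% of all genes. In regenerated overloaded minus regenerated muscle 3 were lower (4.48%, beside 6.49% of all genes), and in regenerated overloaded minus overloaded 0 (beside 3.65%). Their medians were -0.28, -0.35, -0.11 and -0.093. Relative to all genes these medians stayed below 0 under every setting, between -0.18 and -0.099, -0.25 and -0.12, -0.12 and -0.049, and -0.11 and -0.075. Mrps18b differed by -0.44 in regenerated and -0.70 in overloaded minus normal muscle. Mrpl47 differed by -0.57 and -0.95, but by -0.097 in the latter without spots in the outer rows of the array. Mrpl57 (-0.16, or 0.094 with cyclic loess) was the highest of the 67 in overloaded minus normal muscle.

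Of 40 ribosome biogenesis genes, which process and assemble rRNA, 2, 7 and 4 were lower and 0 higher in the first 3 comparisons, and 1 was higher in regenerated overloaded minus overloaded muscle. The shares lower, 5%, 17.5% and 10%, stand beside 8.43%, 14.4% and 6.49% of all genes and are near that background, and the 1 higher is 2.5% beside 4.24%. Their medians were -0.12, -0.25, -0.12 and 0.013, the first between -0.12 and 0.020 over the settings and the second between -0.26 and -0.072. Utp18, of the small-subunit processome, differed by -0.64 in overloaded minus normal muscle (between -0.73 and -0.22), and Gar1, of the box H/ACA particles, by -0.56 (between -0.62 and -0.38). Of 12 genes for RNA polymerase I, its factors and Myc, Myc alone was higher in regenerated minus normal muscle (0.56). That is 8.33% of the list, beside 10.1% of all genes. Myc differed by -0.46 in regenerated overloaded minus regenerated muscle. Polr1b, the second largest polymerase subunit, differed by -0.45 in overloaded minus normal (between -0.57 and -0.27) and -0.38 in regenerated overloaded minus regenerated muscle. In these 2 comparisons 1 and 2 of the 12 were lower, 8.33% and 16.7%, beside 14.4% and 6.49% of all genes. Medians of this list were -0.062, -0.033, 0.057 and 0.055, and the first 3 changed sign over the settings.

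Of 35 initiation and poly(A)-binding genes, Pabpc1, the main cytoplasmic poly(A)-binding protein, was the highest in all 4 comparisons. Its differences were 0.46, 0.51, 0.43 and 0.38, and the first 3 passed 1.3-fold. It was the only member of the list counted higher in each of those 3, and 0, 4 and 1 were counted lower. The 4 and the 1 are 11.4% and 2.86% of the list, below the 14.4% and 6.49% of all genes. Eif3j (-0.61) and Eif4ebp1 (-0.48), which binds the cap-binding protein and holds translation back, were the lowest in overloaded minus normal muscle, and the latter lay between -0.49 and -0.22 over the settings. The medians of the list were -0.18, -0.26, -0.036 and 0.0098. Of 9 elongation genes none was higher and 1 was lower, Tpt1 in overloaded minus normal muscle (-0.43, between -0.46 and -0.056 over the settings). That 1 is 11.1% of the list, beside 14.4% of all genes. In the 4 comparisons 4.24% to 12.2% of all genes were higher. Medians of the elongation genes were -0.20, -0.27, -0.15 and -0.025, and the first turned to 0.037 with cyclic loess. Among them, Eef1a1 and its muscle and neuron paralog Eef1a2, which deliver aminoacyl-tRNA to the ribosome, had opposite signs, except against normal muscle with quantile normalization and cyclic loess. Eef1a1 differed by 0.22, 0.16, 0.19 and 0.24, and was above 0 in all 4 comparisons under every setting. Eef1a2 differed by -0.15, -0.20, -0.25 and -0.20, and reached 0.055 and 0.057 in the first 2 comparisons under those scalings. None of these values passed 1.3-fold, but Eef1a1 did in both comparisons with normal muscle under cyclic loess, at 0.44 and 0.45.

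**Figure D5:**
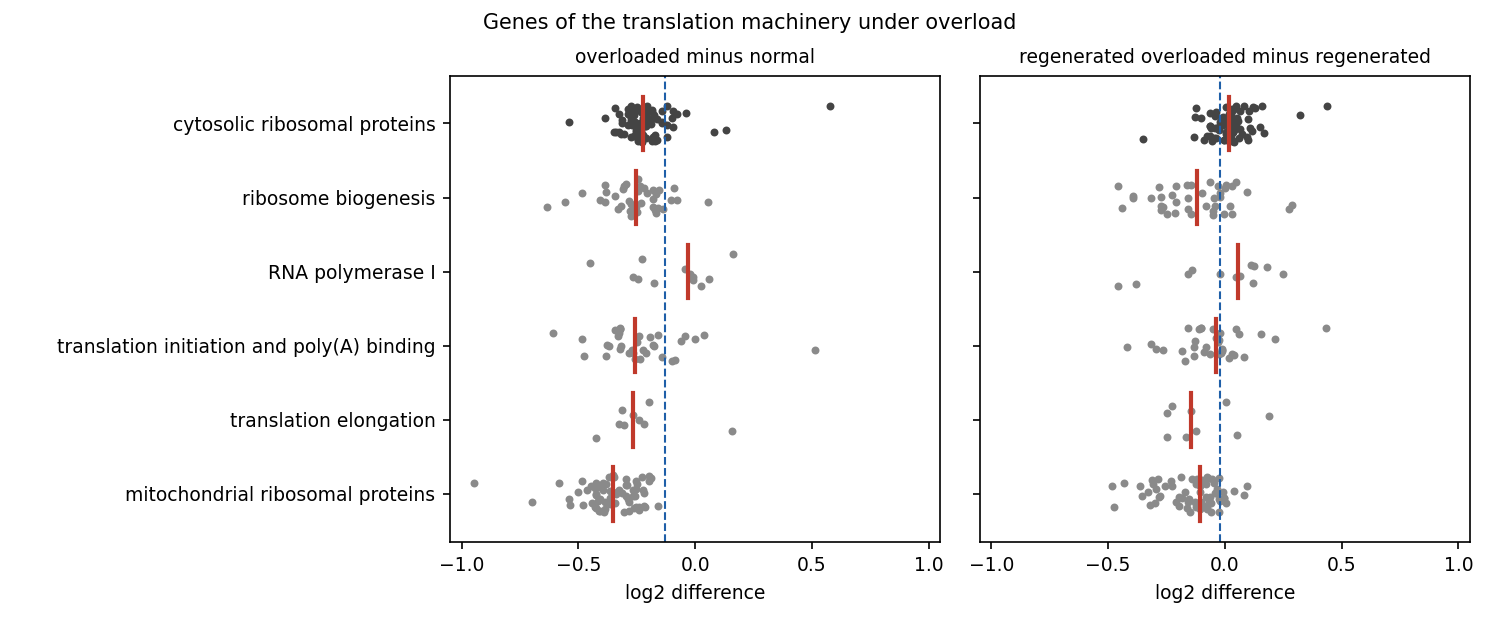
Log2 differences with overload in normal muscle (left) and in regenerated muscle (right), horizontal axes, for genes of 6 lists (vertical axis; points are spread vertically for sight only). Red bars are list medians and the dashed blue line is the median of all genes; among the cytosolic ribosomal proteins Rpl3 stands at 0.58 and 0.44, and the mitochondrial list has a median of -0.35 on the left.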

How the data were processed

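Agilent 1-colour arrays of pooled soleus RNA were measured for 4 groups. Per the file headers, Feature Extraction 11.5.1.1 (protocol GE1_1105_Oct12) made the deposited intensity values: processed, median and background intensity and other columns with flags for outlying, saturated and well-above-background spots. Version 10.10.1.1 is the one in the submitters' processing notes. In addition, the authors' deposited table holds an intensity equal to the processed signal times a constant per array (2.14, 2.10, 1.95 and 2.02), whose basis is not given in the sources used here; it is linear and not centred, with column medians from 182 to 226.

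Here log2 processed signal was reduced by each array's log2 75th percentile. Outlier-flagged spots (406 to 451 per array) were dropped, spots averaged, and a gene read from its brightest probe among those well above background on all 4 arrays (more than 0.5 of spots). By accession, 18643 of 30367 probes matched 15637 symbols in the RefSeq table (GRCr8); the headers name another build, so probes have no coordinates here. Technical errors pool spot SDs in 20 bins of like signal. With 1 array per group there is no test and no p-value; the 1.3-fold limit is one of size. Named members are the 5 highest and 5 lowest in each comparison, listed paralogs and members of known roles, and of other lists the highest and lowest. Members and lists were chosen with earlier results of these data known. The alternatives were normexp (offset 50, on median signals), quantile and cyclic loess (limma 3.58.1), array median, the authors' scaling, the mean over probes, no dim filter, repeated probes only, no spots in the outer 16 rows, 1.5-fold and 2-fold, and standard subunits only. The calculation was tested on simulated data. Python 3.11.15 was used.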

Additional observations from a re-analysis of the deposited data

Results flagged for a closer look

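The family's overload difference had opposite signs in normal and in regenerated muscle with the 75th-percentile scaling, but not with quantile normalization or cyclic loess, where both medians were above 0. The member median was -0.22 in overloaded minus normal and 0.019 in regenerated overloaded minus regenerated muscle, 0.24 apart, and each side is 1 array pair, so the difference was not tested. Of the 81 members, 49 (60.5%) had overload differences of opposite sign, beside 26.4% of all genes. The median in regenerated muscle was smaller than the median technical standard error of a member's difference there (0.052). Many single signs are therefore uncertain. The same gap over all genes was 0.087, and for the members it was 0.020 with quantile normalization and 0.019 with cyclic loess. The 12 soleus fibre markers had a median gap of 0.13, and the part of fibre content in the result was not tested.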

How the results depend on the processing

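No paired analysis was possible because each group is 1 array with no replicate numbers, and for the same reason no array could be left out. Of 220 values for the family under the alternatives, 177 kept their direction and size, 33 moved and 10 reversed; of 4595 differences of named genes, 784 moved and 1 reversed by the rule used, which counts a sign change only where the value had passed 1.3-fold. That one was the difference of differences of Mrpl47, -0.046 without spots in the outer rows. With quantile normalization the member median became 0.051 in regenerated minus normal and 0.053 in overloaded minus normal muscle (0.11 and 0.13 relative to all genes), and 0.020 in the difference of differences (-0.011 relative to all genes). With cyclic loess these were 0.088 and 0.10 (0.13 and 0.15), and 0.019 (-0.020), and the median in regenerated overloaded minus regenerated muscle was 0.12. With the authors' scaling the medians were -0.014, -0.045 and, in the difference of differences, 0.10. In overloaded minus normal muscle, members counted higher and lower were 2 and 0 with quantile normalization (all genes 11.3% and 12.7%). They were 3 and 0 with cyclic loess (12.1% and 12.1%) and 2 and 4 without the dim filter (15.8% and 32.2%). Lower members were 1 with normexp (13.7% of all genes), 0 with the authors' scaling (3.99%) and 1 with standard subunits only (14.4%). Higher members were 2 with repeated probes only (14.2%). Cyclic loess counted 2 higher in regenerated overloaded minus regenerated muscle (7.92% of all genes). Without the dim filter, which adds genes at background, the counts were 2 higher and 1 lower in regenerated minus normal (all genes 14.6% and 28.6%). They were 2 lower in regenerated overloaded minus regenerated (13.9%) and 1 higher in regenerated overloaded minus overloaded (9.88%). In the difference of differences they were 1 of each (26.4% higher and 15.7% lower). There, quantile normalization and repeated probes only each counted 1 lower (7.05% and 8.82%). At 1.5-fold and 2-fold, run with the 75th-percentile scaling alone, the counts were 0 in all 5 comparisons. The cause of the turn under quantile and loess scaling was not tested. Single-spot probes and the number of arrays limit the precision.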

Other observations

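Of 12 detected S6 kinase and pyrimidine-run regulator genes, 2 were higher and 2 lower in regenerated minus normal muscle, and 1 was higher and 3 lower in overloaded minus normal. Of all genes 10.1% and 8.43%, and 12.2% and 14.4%, were higher and lower, so that in a list of this size the counts are near the background. Rps6ka1, a kinase of the RSK family, differed by 0.40 and 0.56 in these comparisons, and its relative Rps6ka2 by -0.40 and -0.50. Over the settings Rps6ka1 lay between 0.31 and 0.53 and between 0.49 and 0.74, and Rps6ka2 between -0.47 and -0.26 and between -0.56 and -0.32, so 3 of these 4 values fell short of 1.3-fold under some settings. Mtor, the kinase at the centre of growth signalling, differed by -0.40 and -0.41, and over the settings lay between -0.52 and -0.26 and between -0.55 and -0.23. Of 9 genes for ribosomal protein chaperones and nuclear import, 1 passed 1.3-fold, Btf3, part of the nascent polypeptide-associated complex, at -0.39 in overloaded minus normal muscle (between -0.39 and -0.21 over the settings). That 1 is 11.1% of the list, beside 14.4% of all genes lower in that comparison. Nap1l1, a histone and ribosomal protein chaperone, differed by 0.22 there and by 0.32 in regenerated overloaded minus regenerated muscle.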
